A study of Arabidopsis thaliana with 18 samples.

Results

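The 12 libraries described here are those harvested at ZT4 and at ZT24, of 18 in the series, and the question is which genes gained, lost or reversed their SOB3-D against sob3-6 difference between the middle of the day and the end of the night. They were chosen by their labels alone. Each of the 4 groups, SOB3-D at ZT4, sob3-6 at ZT4, SOB3-D at ZT24 and sob3-6 at ZT24, held 3 biological replicates of pooled whole Arabidopsis seedlings (Columbia). ZT is the number of hours since the lights came on, so ZT4 fell in the light of day 5 and ZT24 at the dawn that opened day 6, in a photoperiod of 8 h of light and 16 h of darkness at 22 °C on medium with 1% sucrose. The 6 libraries of ZT9, harvested in darkness, did not enter this contrast and are used below as libraries that the classes of genes did not use.

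SOB3-D is a dominant line that overexpresses SOB3, a DNA-binding protein of the AHL family, named for its AT-hook and its nuclear localization. In sob3-6 that overexpressed copy has a single amino acid changed within its AT-hook, and its product is held to bind partners but not DNA. Both groups therefore share the overexpressed locus and differ by the mutation, no wild type was sequenced, and a difference cannot be assigned to one line or the other. As background, AHL proteins restrain the growth of the hypocotyl, whereas PIF proteins, whose activity in short days peaks late in the night, drive it through genes of auxin synthesis and response. In the same hours a leaf passes from fixing carbon in the light, with Calvin cycle and photorespiration enzymes, to living on starch, which plastid amylases degrade until dawn. Morning proteins of the circadian clock such as CCA1 set the phase of much of this.

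The authors' signal is given in CPM, the reads of a transcript scaled by the mapped reads of its library, from 6012747 to 11076919 mapped reads per library. Of the genes, 20574 nuclear ones averaging 0.5 CPM or more in these 12 libraries entered limma's two-sided moderated test, run on log2(CPM + 0.5), and all p-values were adjusted over all transcripts tested. The genotype difference is sob3-6 minus SOB3-D, and its change is the difference at ZT24 minus that at ZT4, so a positive change means that sob3-6 gained relative to SOB3-D. On this scale changes of low genes are understated. In whole seedlings fewer cells of a type and less RNA per cell cannot be told apart. The 10 root markers summed to between 123 and 163 CPM over the 12 libraries and the 6 green shoot markers to between 19785 and 35125 CPM, and 0 of the root markers and 2 of the green shoot markers changed their genotype difference. SOB3 (AT1G76500, chromosome 1 from 28704963 to 28706691) read 272, 227 and 231 CPM in sob3-6 and 191, 177 and 168 CPM in SOB3-D at ZT4, and 317, 331 and 314 CPM in sob3-6 and 210.5, 235 and 212 CPM in SOB3-D at ZT24. SOB3 was higher in every sob3-6 library than in any SOB3-D library at both times, and the change of its difference was 0.11 (standard error 0.12, adjusted p = 0.724), which did not pass the test. Since both lines carry the overexpressed copy, this level is no check of the labels by itself.

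The genotype difference changed between ZT4 and ZT24 for 503 genes (adjusted p under 0.05). It moved upward, towards sob3-6, for 362 genes, or 1.76% of those tested, and downward for 141 genes, or 0.685%. With TMM rescaling, which estimates 1 further scale factor per library, the split was 412 to 82, so that 83.4% of the calls rather than 72.0% were upward. TMM moved the median change over all genes from -0.04 to 0.01. At ZT4 itself 7.33% of the genes were higher and 3.99% lower in sob3-6, and at ZT24 4.92% were higher and 1.68% lower.

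By their estimates most of the changes crossed zero. Of the 503 genes, 411 had estimates of opposite sign at the 2 time points. Picking genes by a large change favours opposite signs, and the share over all genes is not given here. Both differences passed in only 45 of the 411, so this count is a description. The largest class, 272 genes, had a difference at ZT4 that no longer passed the test at ZT24, and these are called lost. Another 148 genes differed at ZT24 but not at ZT4 and are called gained, and 45 differed at both with opposite signs and are called reversed. The other 38 were 18 genes that kept their direction while its size changed, of which 17 were higher in sob3-6, and 20 that passed at neither time point although the change between them did. The scatter of both differences shows these classes side by side. Each class is set by the thresholds of the same fit, so its counts and medians describe the classes and are not a test of them.

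**Figure D1:**
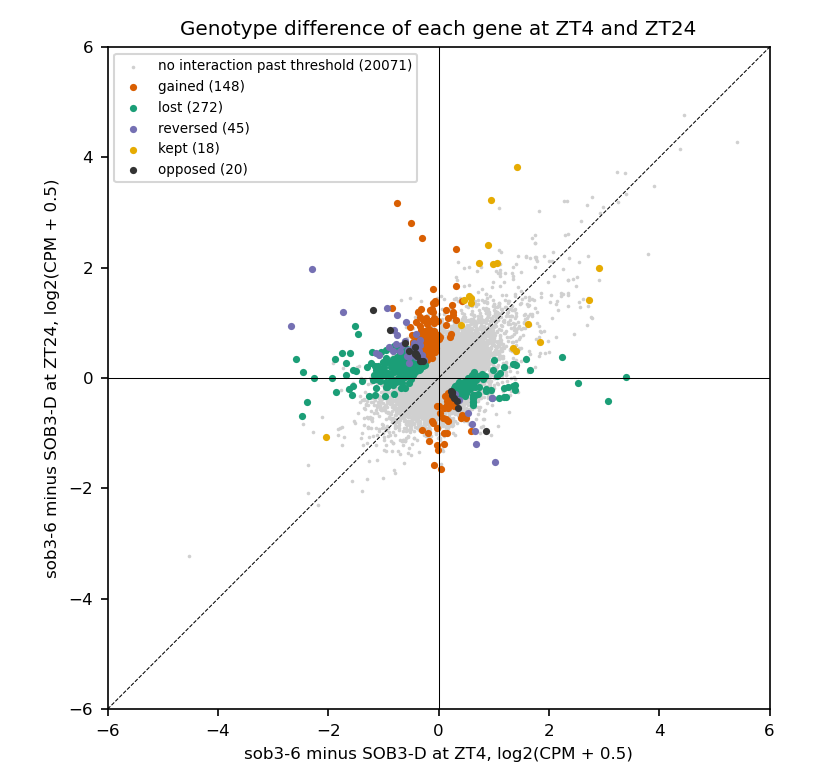
The genotype difference, sob3-6 minus SOB3-D on the log2(CPM + 0.5) scale, at ZT4 (horizontal) and ZT24 (vertical) for 20574 genes, each a point, coloured by class. The dashed line marks equal differences, and 192 of the 272 lost genes lie to the left, lower in sob3-6 at ZT4. At ZT24 the difference of these genes did not pass, and its median was 0.20.

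The counts moved with the libraries in the fit. When the replicate numbers within a time point entered as a block, since both genotypes of a replicate set shared plates, 1031 genes changed their difference, 501 of them lost, 304 gained and 118 reversed, and 499 of the 503 genes were among them. Without 1 library the total lay between 188 genes (without SOB3-D ZT4 replicate 3) and 841 genes (without SOB3-D ZT4 replicate 1), and without replicate 2 in all 4 groups it was 1. In each of these fits the genes of the 503 that could be tested all kept the sign of their change. The block leaves every estimate as it was, and the other fits reuse most of the libraries that called the 503. Their agreement in sign is therefore no separate check.

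**Figure D2:**
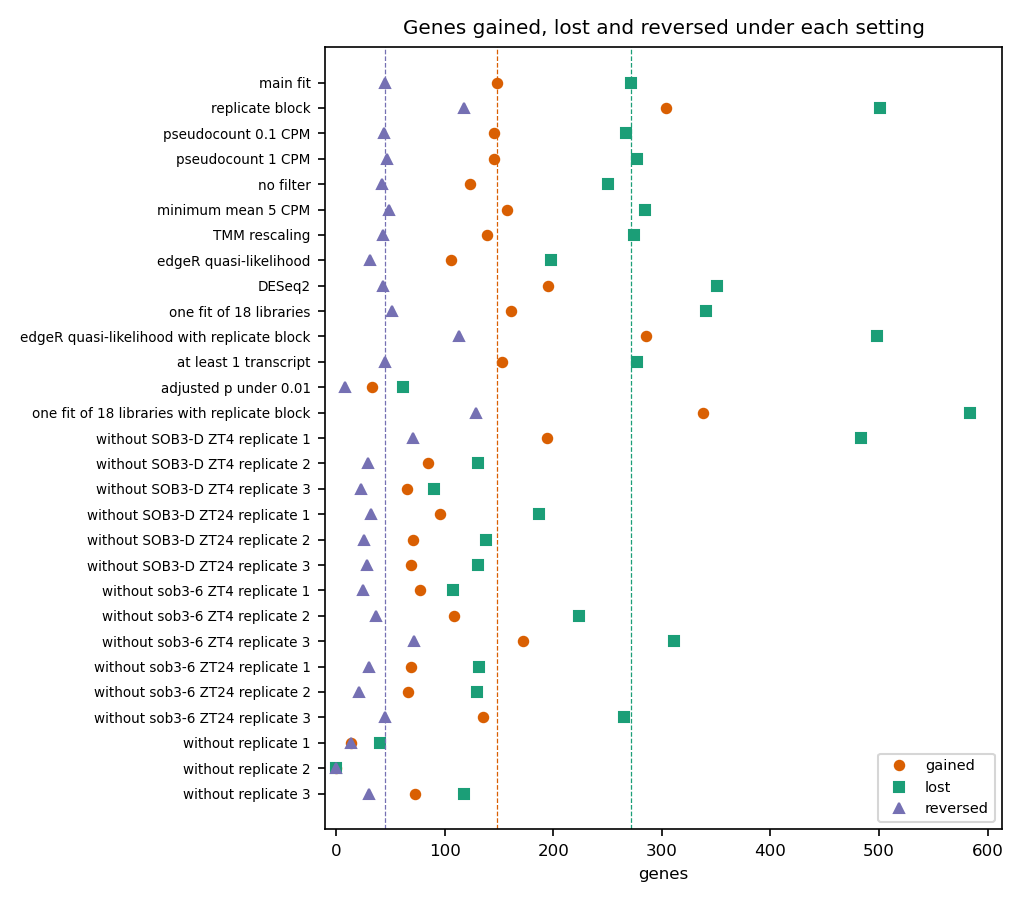
The number of genes (horizontal) that gained, lost or reversed their genotype difference under each setting, including each library left out in turn. The lost class runs from 90 to 483 genes over the 12 fits without 1 library.

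Sequences upstream of a gene from each of the 3 main classes are given first, picked after their matches were seen, because they hold letters that factors of the clock and of light signalling are known to bind. They are the 250 bases before the annotated start of PWD (gained; chr5:9261229-9261478, plus strand), PORA (lost; chr5:21992815-21993064, minus strand) and CT-BMY (reversed; chr4:9607403-9607652, minus strand) in RefSeq's TAIR10.1 assembly. They are written 5′ to 3′ towards the gene, and the capitals mark matches to CACATG, AAAATATCT (the evening element) or GGNCCC on either strand. No other annotated gene overlaps these windows.
PWD: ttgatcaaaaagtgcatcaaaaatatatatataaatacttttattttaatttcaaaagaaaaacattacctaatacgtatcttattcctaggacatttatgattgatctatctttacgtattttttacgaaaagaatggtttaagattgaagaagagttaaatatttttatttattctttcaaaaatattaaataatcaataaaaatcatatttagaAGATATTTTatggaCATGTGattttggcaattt
PORA: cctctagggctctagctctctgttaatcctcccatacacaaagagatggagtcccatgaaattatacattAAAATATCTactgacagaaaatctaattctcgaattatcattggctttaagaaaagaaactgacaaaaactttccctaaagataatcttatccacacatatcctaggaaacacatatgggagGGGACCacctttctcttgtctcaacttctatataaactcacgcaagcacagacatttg
CT-BMY: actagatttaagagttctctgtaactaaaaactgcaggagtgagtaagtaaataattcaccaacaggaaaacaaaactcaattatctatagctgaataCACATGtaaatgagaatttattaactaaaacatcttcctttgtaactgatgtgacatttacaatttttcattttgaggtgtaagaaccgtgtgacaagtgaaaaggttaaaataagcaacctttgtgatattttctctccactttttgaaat

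PWD and PORA each held 1 evening element, PWD and CT-BMY each held 1 CACATG, and PORA held 1 GGNCCC. Over all windows of this length the evening element was found before 5.52% of the genes whose difference moved upward (20 of 362), 2.86% of those that moved downward (4 of 140) and 2.47% of all genes tested (506 of 20496). CACATG was found before 14.6%, 11.4% and 11.4% of these groups, GGNCCC before 11.6%, 12.1% and 8.13%, and CACGTG, the G-box, before 8.29%, 8.57% and 7.46%. AAAAATCT, the site of CCA1, was found before 6.35%, 7.14% and 6.77%. By class, the evening element was found before 4.05% of gained and 2.22% of reversed genes. In lost genes it was found before 6.25% of those lower and 5.06% of those higher in sob3-6 at ZT4. For CACATG these shares were 14.9%, 6.67%, 15.6% and 11.4%, and for GGNCCC 12.8%, 13.3%, 9.38% and 12.7%. CACATG, held by CT-BMY, thus stood before 3 of 45 reversed genes, a lower share than over all genes. Such a match is a description of letters and not a binding site, and these shares were not tested.

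Gained genes were mostly higher in sob3-6 at the end of the night, 109 of 148. The median difference of these 109 went from -0.21 at ZT4 to 0.72 at ZT24, beside 0.04 and 0.01 over all genes tested. Named among them are the aldolase gene FBA5, genes induced by cold and drought such as KIN1 and KIN2, and the glycine decarboxylase gene GLDP1.

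FBA5 (AT4G26530, chromosome 4 from 13390754 to 13393265), which encodes a fructose-bisphosphate aldolase of the cytosolic group, changed most among the gained genes that the naming rule allows. At ZT4 it read 154, 142 and 288 CPM in sob3-6 and 273, 324 and 343 CPM in SOB3-D, and the groups overlapped. At ZT24 it read 17.8, 27.9 and 28.8 CPM in sob3-6 and 1.51, 2.80 and 2.67 CPM in SOB3-D, so all libraries had fallen, those of SOB3-D furthest, and the groups no longer overlapped. Its difference was -0.75 at ZT4 (standard error 0.263, adjusted p = 0.0854) and 3.17 at ZT24 (standard error 0.263, adjusted p = 1.92e-05), a change of 3.92 (standard error 0.373, adjusted p = 0.000453). FBA5 kept this call in 12 of 12 fits with 1 library left out.

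GLDP1 (AT4G33010, chromosome 4 from 15926652 to 15931422), a P-protein of the glycine decarboxylase that releases CO2 in photorespiration, followed the same course at a far higher level. Its values were 1167, 1139 and 1512 CPM in sob3-6 and 1894, 1436 and 1754 CPM in SOB3-D at ZT4, and 766, 832 and 881 CPM in sob3-6 and 411, 379.7 and 437 CPM in SOB3-D at ZT24. At ZT24 every sob3-6 library lay above every SOB3-D library, 2.02-fold on the means. The change was 1.43 (standard error 0.182, adjusted p = 0.00191). GLDP1 kept this call in 12 of 12 fits with 1 library left out.

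KIN1 (AT5G15960, chromosome 5 from 5209717 to 5210826) and its neighbour KIN2 (AT5G15970, chromosome 5 from 5211719 to 5212743) encode small proteins induced by cold and by abscisic acid. KIN1 read 36.6, 49.0 and 39.0 CPM in sob3-6 and 95.7, 55.7 and 77.8 CPM in SOB3-D at ZT4, with no overlap, and 63.6, 70.6 and 29.2 CPM in sob3-6 and 30.3, 23.1 and 12.9 CPM in SOB3-D at ZT24, where the groups overlapped but sob3-6 was higher in 3 of 3 pairs. The change was 2.12 (standard error 0.472, adjusted p = 0.034) for KIN1 and 1.58 (standard error 0.373, adjusted p = 0.0427) for KIN2, whose levels were 55.9 ± 17.9 CPM in SOB3-D and 135 ± 45.0 CPM in sob3-6 at ZT24 (SD, n = 3). Of the 84-base stretches of either gene 0% occur in another gene, although the 2 encode similar proteins. KIN1 kept this call, of the 12 fits with 1 library left out, in those without SOB3-D ZT4 replicate 2, SOB3-D ZT24 replicate 1, sob3-6 ZT4 replicate 2 and sob3-6 ZT24 replicate 3 (adjusted p 0.00643 to 0.0897). KIN2 kept this call, of the 12 fits with 1 library left out, in those without SOB3-D ZT24 replicate 1, sob3-6 ZT4 replicate 3 and sob3-6 ZT24 replicate 3 (adjusted p 0.00921 to 0.122), and lost it with no filter on low values.

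EMB2729 (AT3G20440, chromosome 3 from 7123182 to 7130477), annotated as a member of the alpha amylase family, is the last of the 4 largest. It fell in SOB3-D from 14.8, 16.9 and 17.0 CPM at ZT4 to 7.70, 6.33 and 6.66 CPM at ZT24. In sob3-6 it read 13.8, 13.3 and 7.53 CPM and then 13.3, 11.7 and 15.7 CPM, and the groups did not overlap at either time. The change was 1.44 (standard error 0.277, adjusted p = 0.018). EMB2729 lost this call without SOB3-D ZT4 replicates 2 and 3 and SOB3-D ZT24 replicate 2 (adjusted p 0.00651 to 0.0566 over the 12 fits with 1 library left out).

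The 39 genes gained in the other direction, lower in sob3-6 at ZT24, had a median difference of -0.66 there and 0.13 at ZT4. BT2 (AT3G48360, chromosome 3 from 17907767 to 17910738), a BTB and TAZ domain protein that responds to the nutrient and sugar status of the plant, had the largest change among those named. It stood at 12.9, 8.14 and 14.3 CPM in sob3-6 and 7.39, 6.86 and 8.15 CPM in SOB3-D at ZT4 and at 126, 122 and 278 CPM in sob3-6 and 334, 289.6 and 322 CPM in SOB3-D at ZT24. Every library of ZT24 was above every library of ZT4, SOB3-D furthest, and the groups were apart at ZT24 only. The change was -1.54 (standard error 0.375, adjusted p = 0.0492). BT2 kept this call, of the 12 fits with 1 library left out, in those without sob3-6 ZT4 replicate 2 and sob3-6 ZT24 replicate 3 (adjusted p 0.00241 to 0.122), and lost it with no filter on low values, TMM rescaling, edgeR and DESeq2.

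AST91, a sulfate transporter, rose in SOB3-D from 7.39, 6.95 and 8.98 CPM to 19.3, 19.0 and 25.4 CPM and in sob3-6 read 14.1, 10.8 and 9.08 CPM and then 12.1, 11.2 and 14.7 CPM. Its change was -1.22 (standard error 0.247, adjusted p = 0.0224). CRK28, a cysteine-rich receptor-like kinase, read 8.92, 9.07 and 14.7 CPM in sob3-6 and 22.0, 25.7 and 28.1 CPM in SOB3-D at ZT24, without overlap, and its difference at ZT4 was -0.04. Its change was -1.17 (standard error 0.264, adjusted p = 0.036). HSP17.4, a small heat shock protein, was at 2.69, 1.89 and 1.96 CPM in sob3-6 and 6.18, 6.09 and 5.84 CPM in SOB3-D at ZT24 and its change was -1.28 (standard error 0.27, adjusted p = 0.027). Another gene holds 57.7% of its 84-base stretches and, for CRK28, 11.2%, so reads of these 2 genes may belong to relatives. AST91 lost this call without SOB3-D ZT4 replicate 2, SOB3-D ZT24 replicate 3, sob3-6 ZT4 replicate 1 and sob3-6 ZT24 replicates 1 and 2 (adjusted p 0.00919 to 0.0662 over the 12 fits with 1 library left out). CRK28 kept this call, of the 12 fits with 1 library left out, in those without SOB3-D ZT4 replicate 1, SOB3-D ZT24 replicate 1, sob3-6 ZT4 replicate 3 and sob3-6 ZT24 replicate 3 (adjusted p 0.00641 to 0.0943), and lost it with no filter on low values, TMM rescaling and edgeR. HSP17.4 kept this call, of the 12 fits with 1 library left out, in those without SOB3-D ZT4 replicates 1 and 2, sob3-6 ZT4 replicate 3 and sob3-6 ZT24 replicates 1 and 3 (adjusted p 0.0137 to 0.0727), and lost it with one fit of 18 libraries.

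Lost genes fell into 192 that were lower in sob3-6 at ZT4 and 80 that were higher. The first had a median difference of -0.66 at ZT4 and 0.20 at ZT24. The 3 named ones are a cytochrome P450 (CYP706A6), a late embryogenesis abundant protein (LEA3) and a squalene monooxygenase-like protein (SQP1).

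CYP706A6 (AT4G12320, chromosome 4 from 7313779 to 7316871) was at 16.2, 31.3 and 35.5 CPM in sob3-6 and 75.9, 106 and 116 CPM in SOB3-D at ZT4, 3.58-fold higher on the means in SOB3-D, and at 8.79, 10.4 and 13.3 CPM in sob3-6 and 9.85, 8.403 and 6.87 CPM in SOB3-D at ZT24, where the groups overlapped. SQP1 (AT5G24150, chromosome 5 from 8172300 to 8175525) was likewise at 14.9, 18.5 and 15.3 CPM in sob3-6 and 48.0, 59.0 and 52.7 CPM in SOB3-D at ZT4 and under 7 CPM in all 6 libraries at ZT24. The changes were 2.22 (standard error 0.366, adjusted p = 0.00789) for CYP706A6 and 1.75 (standard error 0.353, adjusted p = 0.0224) for SQP1. LEA3 (AT1G02820, chromosome 1 from 623656 to 624567) was at 2.39, 3.49 and 2.03 CPM in sob3-6 and 12.4, 15.0 and 20.6 CPM in SOB3-D at ZT4, and at 4.88, 4.95 and 3.27 CPM in sob3-6 and 5.17, 7.79 and 5.33 CPM in SOB3-D at ZT24, without overlap at either time. Its difference at ZT24, -0.44 (standard error 0.239, adjusted p = 0.35), did not pass, and it had a change of 1.96 (standard error 0.338, adjusted p = 0.0108). CYP706A6 kept this call in 12 of 12 fits with 1 library left out. LEA3 kept this call in 12 of 12 fits with 1 library left out. SQP1 lost this call without SOB3-D ZT4 replicates 2 and 3 and sob3-6 ZT4 replicate 1 (adjusted p 0.0215 to 0.0633 over the 12 fits with 1 library left out).

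The 80 lost genes that had been higher in sob3-6 at ZT4, with a median difference of 0.63 there and -0.15 at ZT24, were led among the named ones by genes of carbon shortage. SEN1 (AT4G35770, chromosome 4 from 16944878 to 16946266), known as DIN1, is induced by darkness and by loss of sugar, and ASN1 (AT3G47340, chromosome 3 from 17437840 to 17441431), known as DIN6, encodes the asparagine synthetase that stores nitrogen in the dark. SEN1 read 60.6, 34.6 and 44.2 CPM in sob3-6 and 7.21, 3.34 and 2.33 CPM in SOB3-D at ZT4, 10.8-fold higher in sob3-6 on the means, and 115, 161 and 283 CPM in sob3-6 and 179, 158 and 179 CPM in SOB3-D at ZT24. Thus the groups overlapped at ZT24 and were far apart at ZT4. The difference was 3.39 at ZT4 (standard error 0.348, adjusted p = 8.33e-05) and 0.02 at ZT24 (standard error 0.348, adjusted p = 0.984), and the change -3.37 (standard error 0.493, adjusted p = 0.00374). SEN1 kept this call in 12 of 12 fits with 1 library left out.

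ASN1 was at 105, 61.1 and 142 CPM in sob3-6 and 23.4, 11.2 and 17.1 CPM in SOB3-D at ZT4, without overlap, and at 107, 133 and 327 CPM in sob3-6 and 239, 124 and 191 CPM in SOB3-D at ZT24, where sob3-6 spread from below to above SOB3-D. The change was -2.61 (standard error 0.58, adjusted p = 0.0335). ASN1 kept this call, of the 12 fits with 1 library left out, in those without SOB3-D ZT4 replicate 1, SOB3-D ZT24 replicate 2, sob3-6 ZT4 replicate 2 and sob3-6 ZT24 replicate 3 (adjusted p 0.00641 to 0.0891), and lost it with edgeR. The other 2 named genes of this group are transcription factors. BBX27, a B-box protein, read 41.1, 42.9 and 55.0 CPM in sob3-6 and 17.1, 20.8 and 15.8 CPM in SOB3-D at ZT4 and its change was -1.08 (standard error 0.196, adjusted p = 0.0135). WRI4, an AP2-type activator of cuticular wax synthesis, read 9.42, 5.47 and 6.69 CPM in sob3-6 and 3.74, 3.34 and 2.16 CPM in SOB3-D at ZT4 and its change was -1.46 (standard error 0.34, adjusted p = 0.0401). BBX27 kept this call in 12 of 12 fits with 1 library left out. WRI4 kept this call, of the 12 fits with 1 library left out, in those without SOB3-D ZT4 replicate 1, sob3-6 ZT4 replicate 2 and sob3-6 ZT24 replicate 3 (adjusted p 0.0135 to 0.105), and lost it with no filter on low values, TMM rescaling and edgeR.

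Reversed genes were mostly lower in sob3-6 at ZT4 and higher at ZT24, 37 of 45, and the 3 named ones of this direction follow. CT-BMY (AT4G17090, chromosome 4 from 9604962 to 9607402), also named BAM3, is a plastid beta-amylase that releases maltose from starch at night. At ZT4 it read 13.5, 17.7 and 17.4 CPM in sob3-6 and 42.2, 60.4 and 64.5 CPM in SOB3-D, 3.44-fold higher in SOB3-D. At ZT24 it read 42.1, 50.8 and 53.6 CPM in sob3-6 and 22.6, 20.46 and 19.7 CPM in SOB3-D, 2.33-fold higher in sob3-6. From ZT4 to ZT24 the level fell in SOB3-D and rose in sob3-6, and at neither of these times did the groups overlap. At ZT9 the mean was 112 CPM in SOB3-D and 102 CPM in sob3-6, higher than at either of these times. Its difference was -1.74 at ZT4 (standard error 0.157, adjusted p = 3.07e-05) and 1.199 at ZT24 (standard error 0.157, adjusted p = 0.0005), and its change of 2.94 (standard error 0.222, adjusted p = 0.000119) had the smallest adjusted p of the genes named here. CT-BMY kept this call in 12 of 12 fits with 1 library left out. Of its 84-base stretches 21.5% also occur in transcripts of another annotated gene.

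ATSPS4F (AT4G10120, chromosome 4 from 6313914 to 6320094), a sucrose phosphate synthase, was at 21.8, 23.0 and 28.3 CPM in sob3-6 and 53.2, 36.0 and 52.9 CPM in SOB3-D at ZT4 and at 19.8, 19.3 and 19.6 CPM in sob3-6 and 6.31, 8.53 and 8.81 CPM in SOB3-D at ZT24. CYP76C1 (AT2G45560, chromosome 2 from 18776015 to 18778676), a cytochrome P450, was at 42.3, 49.9 and 68.8 CPM in sob3-6 and 74.5, 96.4 and 99.5 CPM in SOB3-D at ZT4 and at 9.40, 8.37 and 7.31 CPM in sob3-6 and 3.66, 3.04 and 3.90 CPM in SOB3-D at ZT24. Both were lower at ZT24 than at ZT4 in both genotypes, by more in SOB3-D, and no groups overlapped. The changes were 2.204 (standard error 0.231, adjusted p = 0.000929) and 1.89 (standard error 0.244, adjusted p = 0.00191), and both genes kept these calls in 12 of 12 fits with 1 library left out.

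In the other direction 8 genes reversed from higher to lower in sob3-6. CYCP4;1 (AT2G44740, chromosome 2 from 18441828 to 18443405), a P-type cyclin, read 9.70, 12.6 and 14.0 CPM in sob3-6 and 8.12, 7.85 and 6.32 CPM in SOB3-D at ZT4 and 8.79, 7.30 and 7.96 CPM in sob3-6 and 18.4, 15.6 and 14.2 CPM in SOB3-D at ZT24. GRF11 (AT1G34760, chromosome 1 from 12743722 to 12745748), a 14-3-3 protein, read 24.6, 20.6 and 27.97 CPM in sob3-6 and 16.1, 14.4 and 17.0 CPM in SOB3-D at ZT4 and 24.7, 26.0 and 32.8 CPM in sob3-6 and 46.3, 48.0 and 55.9 CPM in SOB3-D at ZT24. GATA9 (AT4G32890, chromosome 4 from 15875342 to 15876827), a GATA transcription factor, moved from 0.54 to -0.63. The GATA9 mean of SOB3-D was 7.7 CPM at ZT4, 16.2 CPM at ZT9 and 15.4 CPM at ZT24. In all 3 genes the groups were apart at ZT4 and at ZT24, and SOB3-D was higher at ZT24 than at ZT4. Their changes were -1.61 (standard error 0.222, adjusted p = 0.00251), -1.44 (standard error 0.19, adjusted p = 0.00199) and -1.17 (standard error 0.168, adjusted p = 0.00348), in that order, and each kept its call in 12 of 12 fits with 1 library left out.

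**Figure D3:**
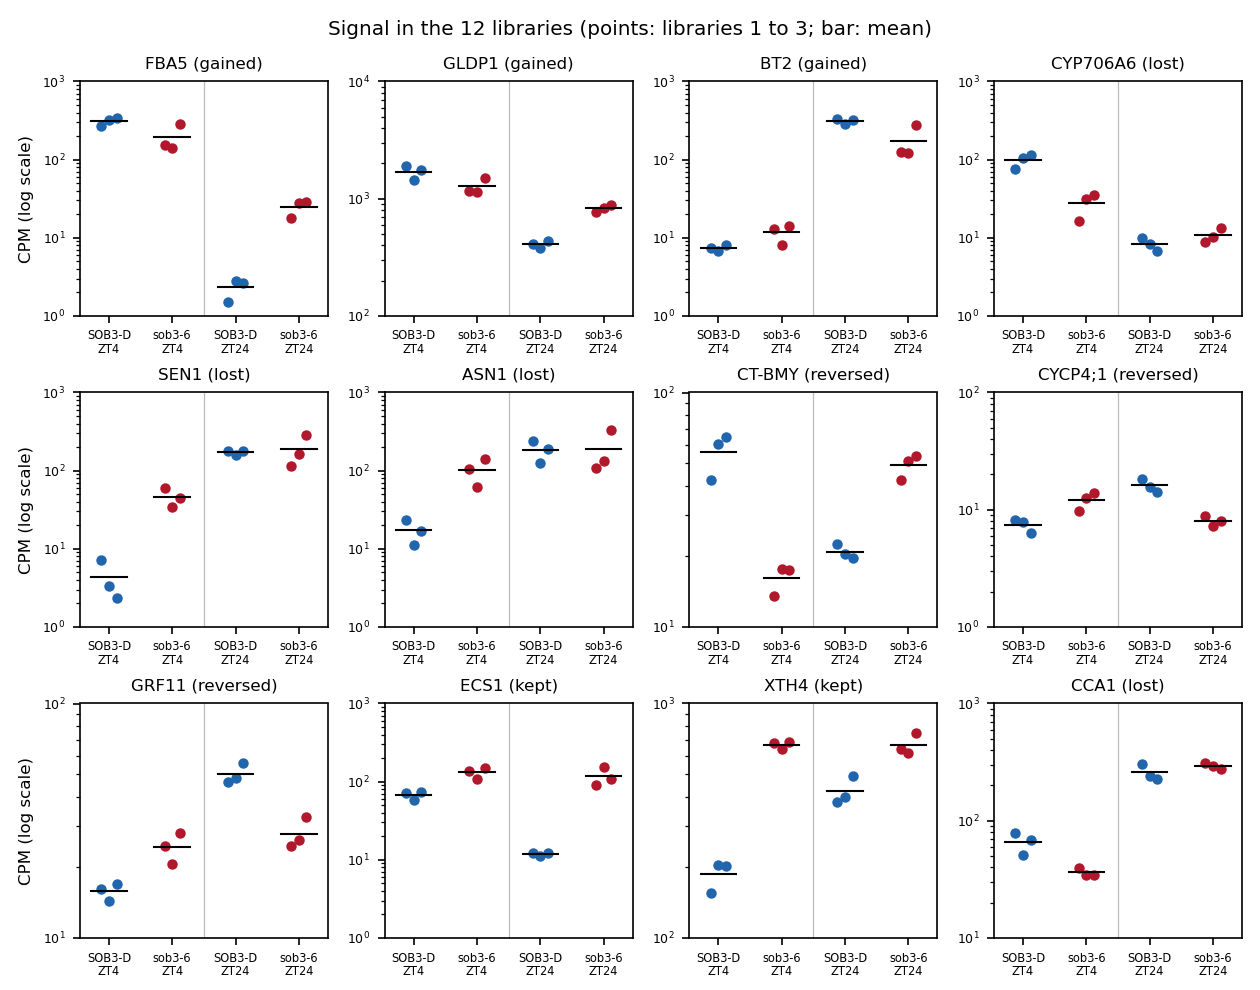
CPM on a log axis in the 12 libraries for 12 named genes, points for the replicates (SOB3-D in blue, sob3-6 in red) and a bar for the mean of each group. CT-BMY shows the crossing of a reversed gene, and in SEN1 the groups are apart at ZT4 only.

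Of the genes that kept their direction, ECS1 and COR15A are the 2 named whose difference was larger at ZT24. ECS1 (AT1G31580, chromosome 1 from 11310997 to 11311989) encodes a protein of the cell wall. It read 137, 108 and 149.7 CPM in sob3-6 and 71.3, 57.7 and 73.0 CPM in SOB3-D at ZT4, and 91.6, 155 and 109 CPM in sob3-6 and 12.1, 11.2 and 12.3 CPM in SOB3-D at ZT24. Its mean fell far more in SOB3-D, so that the ratio of the means went from 1.95 to 9.98, a change of 2.27 (standard error 0.241, adjusted p = 0.00097). COR15A (AT2G42540, chromosome 2 from 17710441 to 17712330), a cold-regulated protein of the chloroplast, stood at 42.8, 64.8 and 85.9 CPM in sob3-6 and 19.6, 19.2 and 31.6 CPM in SOB3-D at ZT4 and at 12.7, 25.9 and 6.98 CPM in sob3-6 and 0.379, 0.365 and 0.717 CPM in SOB3-D at ZT24. In 2 of the 3 SOB3-D libraries of ZT24 that is 3 reads, the level that a count of 0 allows, so its change of 2.40 (standard error 0.536, adjusted p = 0.034) carries no fold here. ECS1 kept this call in 12 of 12 fits with 1 library left out. COR15A kept this call, of the 12 fits with 1 library left out, in those without SOB3-D ZT4 replicate 1, sob3-6 ZT4 replicate 3 and sob3-6 ZT24 replicate 3 (adjusted p 0.00665 to 0.0991), and lost it with a pseudocount of 1 CPM, no filter on low values and edgeR.

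XTH4 (AT2G06850, chromosome 2 from 2763449 to 2765743), an enzyme that loosens xyloglucan in the cell wall, kept a smaller difference. Its values were 679, 637 and 682 CPM in sob3-6 and 156, 204 and 203 CPM in SOB3-D at ZT4 and 639, 617 and 745 CPM in sob3-6 and 379, 399.7 and 489 CPM in SOB3-D at ZT24, 3.55-fold and then 1.58-fold higher in sob3-6. Its level in sob3-6 was much the same at both times and that in SOB3-D rose, a change of -1.18 (standard error 0.174, adjusted p = 0.00391). LUP1, a lupeol synthase, went from 8.03-fold to 4.08-fold higher in sob3-6, and its change was -0.92 (standard error 0.211, adjusted p = 0.0386). XTH4 kept this call in 12 of 12 fits with 1 library left out. LUP1 kept this call, of the 12 fits with 1 library left out, in those without SOB3-D ZT4 replicate 1, SOB3-D ZT24 replicate 2 and sob3-6 ZT4 replicate 3 (adjusted p 0.0172 to 0.108), and lost it with no filter on low values and one fit of 18 libraries. Of the 84-base stretches of LUP1 15.4% occur in another gene.

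Of the 20 genes that passed at neither time point, the 2 named are CYP79F2, which makes precursors of aliphatic glucosinolates, and BBX18, a B-box protein. CYP79F2 read 8.16, 18.04 and 3.94 CPM in sob3-6 and 12.6, 23.8 and 25.6 CPM in SOB3-D at ZT4 and 12.9, 17.2 and 10.7 CPM in sob3-6 and 4.67, 5.97 and 5.64 CPM in SOB3-D at ZT24, and its change was 2.41 (standard error 0.571, adjusted p = 0.043). BBX18 read 10.3, 13.7 and 9.32 CPM in sob3-6 and 19.7, 19.7 and 22.3 CPM in SOB3-D at ZT4 and 20.4, 15.1 and 12.9 CPM in sob3-6 and 10.98, 11.7 and 4.51 CPM in SOB3-D at ZT24, without overlap at either time, and its change was 1.75 (standard error 0.401, adjusted p = 0.0377). CYP79F2 kept this call, of the 12 fits with 1 library left out, in those without SOB3-D ZT4 replicate 1, sob3-6 ZT4 replicates 2 and 3 and sob3-6 ZT24 replicate 3 (adjusted p 0.00724 to 0.122), and lost it with no filter on low values and edgeR. BBX18 lost this call without SOB3-D ZT4 replicates 2 and 3, sob3-6 ZT4 replicates 1 and 3 and sob3-6 ZT24 replicates 1 and 2 (adjusted p 0.0322 to 0.103 over the 12 fits with 1 library left out), and lost it with no filter on low values.

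The enzymes of carbon fixation and photorespiration that passed all moved upward. Of 31 genes of these 2 pathways, a list written after these results were known, 15 passed upward and 0 downward, beside 1.76% and 0.685% of all genes, and 30 of 31 estimates were above zero. The median difference went from -0.30 at ZT4 to 0.31 at ZT24, and the median change was 0.62, beside -0.04 over all genes tested. By class 6 were gained, 3 lost and 6 reversed. At ZT4 12 of the 31 were lower and 0 higher in sob3-6, and at ZT24 12 were higher and 0 lower, beside 3.99% of all genes lower at ZT4 and 4.92% higher at ZT24. The count was 22 with the replicate block, and between 8 and 23 without 1 library, lowest without SOB3-D ZT4 replicate 3 and highest without sob3-6 ZT4 replicate 3. The 6 green shoot markers summed to 28918 to 35125 CPM in SOB3-D and 27565 to 32836 CPM in sob3-6 at ZT4, and to 19785 to 20925 CPM and 21711 to 25184 CPM at ZT24, and 2 of them, RBCS2B and CA1, passed upward. RBCS1A, RBCS2B and RBCS3B are in both lists, and the part of green tissue in the result was not tested.

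FBA1 (AT2G21330, chromosome 2 from 9128122 to 9130619), a plastid aldolase of the Calvin cycle, reversed. It read 566, 603 and 698 CPM in sob3-6 and 986, 1119 and 1189 CPM in SOB3-D at ZT4, and 1064, 1204 and 1025 CPM in sob3-6 and 755, 817 and 766 CPM in SOB3-D at ZT24. Every SOB3-D library was above every sob3-6 library in the day and below every one at dawn, and the change was 1.31 (standard error 0.149, adjusted p = 0.00125). The other 5 that reversed were SBPASE, CP12-2, GOX1, GOX2 and AGT. CP12-2, a small regulator of the cycle, went from -0.59 to 1.01.

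GLDP2, the second P-protein gene of glycine decarboxylase, had lost its difference. It read 346, 345 and 373 CPM in sob3-6 and 604, 532 and 609.9 CPM in SOB3-D at ZT4, and 412, 404 and 423 CPM in sob3-6 and 383, 367 and 377 CPM in SOB3-D at ZT24, and the change was 0.85 (standard error 0.106, adjusted p = 0.00191). The gained and lost ones among the other members are RBCS1B and RBCS2B of the small subunit of Rubisco, GAPB, GGAT1, GLDH1, HPR1 and PGLP1, with changes from 0.62 to 0.84. RBCS1B and RBCS2B belong to a family of near copies, and of the stretches of PGLP1 (AT5G36790) 95.3% occur in another gene, so the signal of these 3 genes may belong in part to relatives. FBA1 and GLDP2 kept their calls in 12 of 12 fits with 1 library left out.

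Starch genes moved the same way where they passed. Of 16 in the list, 3 passed upward (CT-BMY, GBSS1 and PWD) and 0 downward, beside 1.76% and 0.685% of all genes, 15 of 16 estimates were above zero, and the median change was 0.36. With the replicate block 6 passed upward, and without 1 library between 2 (without SOB3-D ZT4 replicates 2 and 3, SOB3-D ZT24 replicates 1 and 3, sob3-6 ZT4 replicates 1 and 2 and sob3-6 ZT24 replicates 1 and 2) and 6 (without SOB3-D ZT4 replicate 1 and sob3-6 ZT4 replicate 3). GBSS1 (AT1G32900, chromosome 1 from 11920390 to 11923866), the granule-bound synthase that makes amylose, read 67.3, 67.7 and 56.2 CPM in sob3-6 and 84.4, 62.0 and 77.5 CPM in SOB3-D at ZT4 and 178, 191 and 150.4 CPM in sob3-6 and 89.9, 84.2 and 88.3 CPM in SOB3-D at ZT24, where sob3-6 was 1.98-fold higher, and its change was 1.196 (standard error 0.171, adjusted p = 0.00329). PWD, which phosphorylates starch ahead of its breakdown, was at 52.5, 67.2 and 53.5 CPM in sob3-6 and 31.4, 41.6 and 35.5 CPM in SOB3-D at ZT24, and its change was 0.82 (standard error 0.195, adjusted p = 0.0428). GBSS1 kept this call in 12 of 12 fits with 1 library left out, and lost it with one fit of 18 libraries. PWD kept this call, of the 12 fits with 1 library left out, in those without SOB3-D ZT4 replicate 1, SOB3-D ZT24 replicate 2, sob3-6 ZT4 replicate 3 and sob3-6 ZT24 replicate 3 (adjusted p 0.02 to 0.122), and lost it with no filter on low values and edgeR.

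The carbon starvation genes that passed did so in the other direction. In a list of 13, SEN1 and ASN1 passed downward and 0 upward, beside 0.685% and 1.76% of all genes, 11 of 13 estimates were below zero, and the median difference went from 0.75 at ZT4 to -0.09 at ZT24. With the replicate block 4 passed downward, and without 1 library between 1 (without SOB3-D ZT4 replicates 2 and 3, SOB3-D ZT24 replicates 1 and 3, sob3-6 ZT4 replicates 1 and 3 and sob3-6 ZT24 replicates 1 and 2) and 4 (without sob3-6 ZT24 replicate 3). TPS11, of the trehalose phosphate synthase family, went from 1.01 to -0.12, a change of -1.13 (standard error 0.288, adjusted p = 0.0597) that did not pass.

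**Figure D4:**
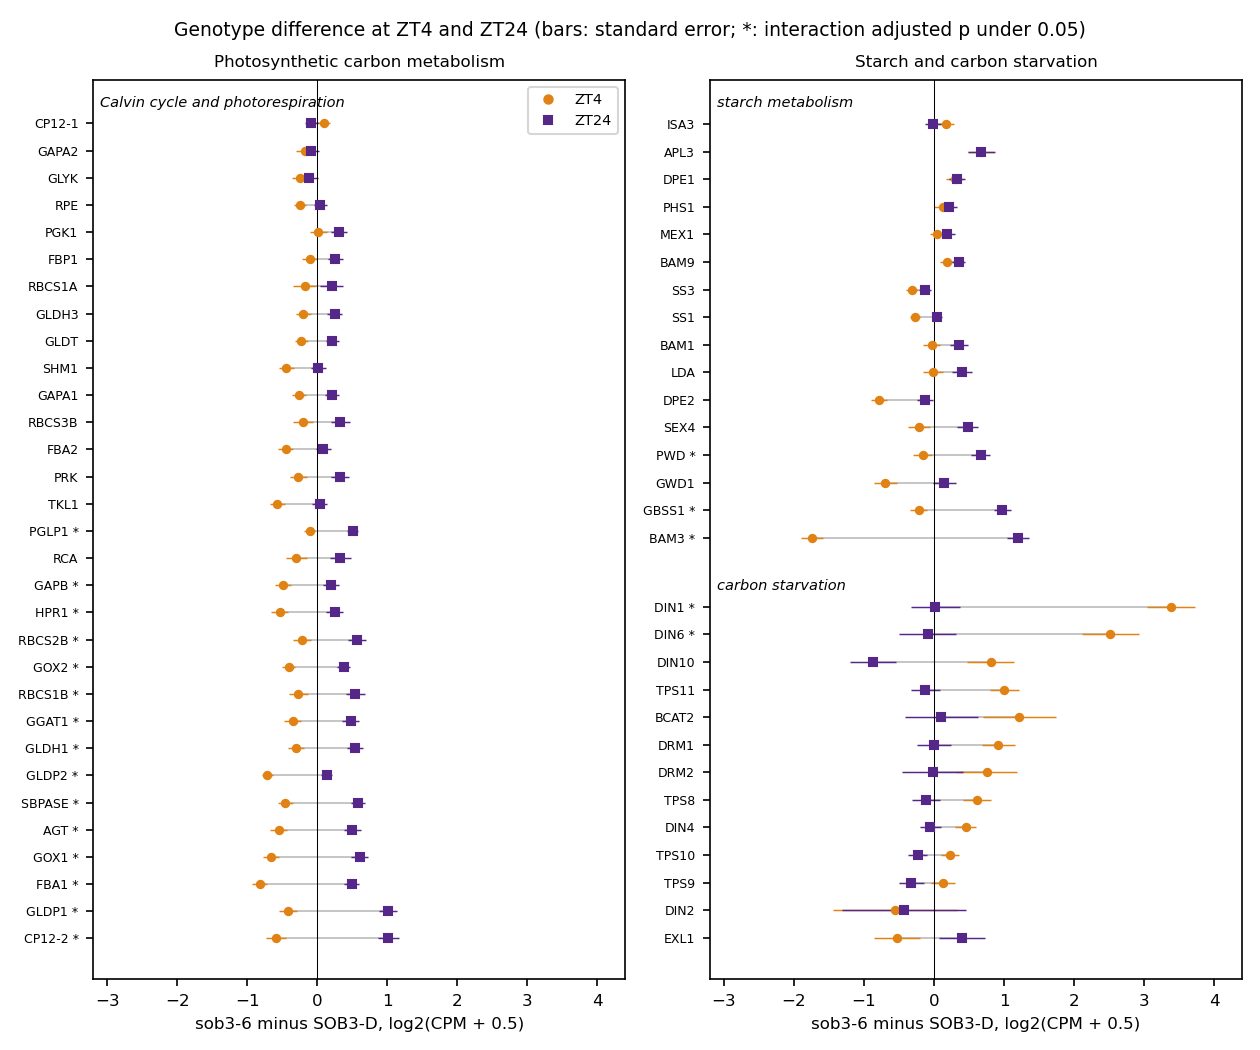
The genotype difference at ZT4 (orange circles) and ZT24 (violet squares), log2(CPM + 0.5), with standard errors, for each member of 3 gene lists. An asterisk marks an adjusted p under 0.05 for the change, in 15 of 31, 3 of 16 and 2 of 13 members. BAM3, DIN1 and DIN6 are the list names of CT-BMY, SEN1 and ASN1.

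Of 25 clock genes 3 passed upward, all in the lost class, and 0 downward, beside 1.76% and 0.685% of all genes, while the median change was 0.22. CCA1 (AT2G46830, chromosome 2 from 19245591 to 19248915), a morning repressor at the core of the clock, read 39.4, 34.7 and 34.5 CPM in sob3-6 and 79.3, 50.8 and 69.0 CPM in SOB3-D at ZT4 and 308, 294 and 278 CPM in sob3-6 and 306, 240.3 and 228 CPM in SOB3-D at ZT24. In the day each SOB3-D library was above each sob3-6 library and at dawn, where all libraries were higher, the groups overlapped. Its change was 1.04 (standard error 0.206, adjusted p = 0.0203). Its close relative LHY had a difference of 0.46 at ZT4 and 0.27 at ZT24, and its change of -0.20 (standard error 0.255, adjusted p = 0.782) did not pass.

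RVE1, a relative of CCA1 that promotes growth through auxin, was at 7.73, 6.17 and 9.92 CPM in sob3-6 and 14.0, 13.6 and 11.3 CPM in SOB3-D at ZT4 and 98.3, 93.9 and 101 CPM in sob3-6 and 88.3, 62.5 and 62.7 CPM in SOB3-D at ZT24, and its change was 1.17 (standard error 0.231, adjusted p = 0.0206). ELF4, of the evening complex that represses PIF4 and PIF5, read 4.78, 5.70 and 6.81 CPM in sob3-6 and 13.3, 10.7 and 13.8 CPM in SOB3-D at ZT4 and under 1 CPM in all 6 libraries at ZT24, and its change was 1.22 (standard error 0.287, adjusted p = 0.0427). Under 1 CPM a difference is hard to see on this scale, so the lost class of ELF4 says little about the end of the night. CCA1 lost this call without SOB3-D ZT4 replicate 3, SOB3-D ZT24 replicates 2 and 3 and sob3-6 ZT24 replicates 1 and 2 (adjusted p 0.00758 to 0.0635 over the 12 fits with 1 library left out), and lost it with one fit of 18 libraries. RVE1 lost this call without SOB3-D ZT4 replicate 2, SOB3-D ZT24 replicates 2 and 3, sob3-6 ZT4 replicate 1 and sob3-6 ZT24 replicates 1 and 2 (adjusted p 0.00458 to 0.0613 over the 12 fits with 1 library left out). ELF4 kept this call, of the 12 fits with 1 library left out, in those without sob3-6 ZT4 replicate 3 and sob3-6 ZT24 replicate 3 (adjusted p 0.035 to 0.126), and lost it with a pseudocount of 0.1 CPM, edgeR, DESeq2 and edgeR with the block. Of the 25 between 0 (without SOB3-D ZT24 replicates 2 and 3 and sob3-6 ZT24 replicates 1 and 2) and 4 (without sob3-6 ZT4 replicate 3) passed upward without 1 library. For LNK3, a coactivator of the clock, the difference went from 0.08 to 0.58, and its change of 0.50 (standard error 0.136, adjusted p = 0.077) did not pass.

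CDF1 and CDF3, Dof factors that repress flowering, were the 2 of 5 CDF genes that passed, both upward, beside 1.76% of all genes. CDF1 read 21.5, 22.1 and 26.2 CPM in sob3-6 and 23.1, 22.3 and 26.1 CPM in SOB3-D at ZT4 and 26.3, 30.5 and 26.5 CPM in sob3-6 and 17.4, 17.8 and 15.0 CPM in SOB3-D at ZT24, so its difference was gained. CDF3 read 90.3, 85.5 and 102 CPM in sob3-6 and 132, 126 and 134 CPM in SOB3-D at ZT4 and 84.3, 88.6 and 81.6 CPM in sob3-6 and 84.8, 87.2 and 86.9 CPM in SOB3-D at ZT24, so its difference was lost. The changes were 0.75 (standard error 0.159, adjusted p = 0.0273) and 0.47 (standard error 0.107, adjusted p = 0.0369). CDF1 lost this call without SOB3-D ZT4 replicate 3, SOB3-D ZT24 replicate 3, sob3-6 ZT4 replicates 1 and 2 and sob3-6 ZT24 replicates 1 and 2 (adjusted p 0.013 to 0.0804 over the 12 fits with 1 library left out), and lost it with one fit of 18 libraries. CDF3 kept this call, of the 12 fits with 1 library left out, in those without SOB3-D ZT4 replicate 1, sob3-6 ZT4 replicate 3 and sob3-6 ZT24 replicate 3 (adjusted p 0.00823 to 0.105), and lost it with edgeR and one fit of 18 libraries.

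Of 13 PIF targets 10 were higher in sob3-6 at ZT4 and 9 at ZT24, beside 7.33% and 4.92% of all genes, and 1 passed upward for the change, beside 1.76%. That 1 is IAA19 (AT3G15540, chromosome 3 from 5264001 to 5265695), an auxin response repressor induced by auxin itself, which read 9.56, 12.8 and 10.04 CPM in sob3-6 and 4.56, 5.69 and 5.32 CPM in SOB3-D at ZT4 and 32.5, 30.04 and 37.1 CPM in sob3-6 and 5.55, 7.55 and 10.04 CPM in SOB3-D at ZT24, without overlap at either time. The ratio of means went from 2.08 to 4.304, a change of 1.08 (standard error 0.263, adjusted p = 0.0494). IAA19 kept this call, of the 12 fits with 1 library left out, in those without SOB3-D ZT4 replicate 1, SOB3-D ZT24 replicate 3 and sob3-6 ZT4 replicate 2 (adjusted p 0.0255 to 0.127), and lost it with a pseudocount of 0.1 CPM, no filter on low values, edgeR and one fit of 18 libraries. The other 12 had changes between that of SAUR22, -0.73 (standard error 0.342, adjusted p = 0.323), and that of PIL1, 0.90 (standard error 0.284, adjusted p = 0.125). Of the 7 PIF genes themselves 0 passed with limma, with the replicate block, with edgeR and with DESeq2. At an unadjusted p under 0.05 by limma 0 of them passed too, beside 15.3% of all genes tested.

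Of 8 growth repressors 3 passed, BBX22 (named LZF1 in the annotation) and ELF4 upward and BBX21 downward, beside 1.76% and 0.685% of all genes. Without 1 library between 0 and 1 passed upward and between 0 and 1 downward. BBX21 (AT1G75540, chromosome 1 from 28365824 to 28367738), a B-box activator of light responses, was at 82.7, 82.7 and 98.1 CPM in sob3-6 and 101.3, 90.5 and 94.0 CPM in SOB3-D at ZT4 and 97.0, 109.8 and 121 CPM in sob3-6 and 186, 182 and 190.5 CPM in SOB3-D at ZT24, where it was 1.70-fold higher in SOB3-D. LZF1, of the same family, was at 60.2, 53.3 and 59.6 CPM in sob3-6 and 112, 110.5 and 112 CPM in SOB3-D at ZT4 and 10.02, 7.89 and 8.29 CPM in sob3-6 and 11.9, 9.74 and 7.58 CPM in SOB3-D at ZT24, a difference of the day alone. The changes were -0.65 (standard error 0.132, adjusted p = 0.0229) and 0.81 (standard error 0.193, adjusted p = 0.0447). BBX21 lost this call without SOB3-D ZT4 replicates 2 and 3, SOB3-D ZT24 replicates 2 and 3 and sob3-6 ZT24 replicates 1 and 2 (adjusted p 0.0141 to 0.0648 over the 12 fits with 1 library left out), and lost it with edgeR. LZF1 kept this call, of the 12 fits with 1 library left out, in those without SOB3-D ZT24 replicate 1 (adjusted p 0.0184 to 0.11), and lost it with a pseudocount of 0.1 CPM and no filter on low values.

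Light reception and harvesting gave single calls. PHYA, the photoreceptor of far-red light that accumulates in darkness, was at 252, 235 and 243 CPM in sob3-6 and 152, 127 and 141 CPM in SOB3-D at ZT4 and 526, 539 and 664 CPM in sob3-6 and 479, 586 and 660.5 CPM in SOB3-D at ZT24, a change of -0.79 (standard error 0.171, adjusted p = 0.0292). PHYA was the 1 of 10 photoreceptor genes to pass. PORA (AT5G54190, chromosome 5 from 21990864 to 21992814), the light-dependent protochlorophyllide reductase of etiolated tissue, was the 1 of 15 chlorophyll synthesis genes. It read 10.12, 11.3 and 16.9 CPM in sob3-6 and 1.09, 0.361 and 2.16 CPM in SOB3-D at ZT4, higher in every sob3-6 library, and 1.71, 1.296 and 2.40 CPM in sob3-6 and 1.64, 2.31 and 3.997 CPM in SOB3-D at ZT24, a change of -3.48 (standard error 0.539, adjusted p = 0.00541). The lowest SOB3-D library of ZT4, at 0.361 CPM, was close to the 3 reads that a count of 0 allows, so no fold is given for PORA. LHB1B1, 1 of 21 light-harvesting genes to pass, read 7349, 7351 and 9744 CPM in sob3-6 and 4963, 5676 and 5025 CPM in SOB3-D at ZT4 and 3119.5, 2624 and 3062 CPM in sob3-6 and 4391, 3269 and 3642 CPM in SOB3-D at ZT24, a change of -0.98 (standard error 0.223, adjusted p = 0.0362). Members of its family share sequence (5.86% of its 84-base stretches). All 3 calls were downward, as were 0.685% of all genes. Of the light-harvesting estimates 5 of 21 were above zero, and their median change was -0.285, beside -0.037 over all genes tested. At an unadjusted p under 0.05 by limma 2 of them moved upward and 7 downward, beside 15.3% of all genes in either direction. The median change was 0.053 for the photoreceptor genes and 0.059 for the chlorophyll synthesis genes. With the replicate block 2 chlorophyll synthesis genes passed upward and 2 downward, and 1 light-harvesting gene each way, and without 1 library between 0 and 3 chlorophyll synthesis genes passed upward. PHYA kept this call, of the 12 fits with 1 library left out, in those without SOB3-D ZT4 replicate 1, SOB3-D ZT24 replicate 1, sob3-6 ZT4 replicates 2 and 3 and sob3-6 ZT24 replicate 3 (adjusted p 0.0137 to 0.0834), and lost it with edgeR. PORA kept this call in 12 of 12 fits with 1 library left out. LHB1B1 kept this call, of the 12 fits with 1 library left out, in those without sob3-6 ZT4 replicates 2 and 3 (adjusted p 0.0239 to 0.107), and lost it with no filter on low values, TMM rescaling and edgeR.

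Further lists held few calls. Of 14 flavonoid genes 13 were tested and 0 passed (3 upward and 1 downward at an unadjusted p under 0.05), and of 18 brassinosteroid and gibberellin genes 0 passed (2 and 5). Of the tested members of families, 0 of 57 SAUR genes passed (3 and 9), 0 of 8 GH3 (0 and 0), 0 of 20 expansin (1 and 2) and 0 of 29 AHL genes (1 and 2). IAA19 was the 1 of 26 IAA genes to pass and XTH4 the 1 of 29 XTH genes. Several of these counts depend on the replicate block. With it 1 flavonoid gene and 1 expansin gene passed upward, 1 brassinosteroid or gibberellin gene passed each way, SAUR genes gave 2 upward and 1 downward and XTH genes 2 upward and 3 downward, while GH3 and AHL genes still gave 0. Of the lists with 0 calls, edgeR without the block called 1 SAUR gene downward, and DESeq2 called 2 flavonoid genes, 1 SAUR gene and 1 expansin gene upward. Of 23 heat shock genes HSP17.4 passed downward and CR88, a chaperone of the chloroplast, upward, from -0.52 to 0.43. CR88 kept this call, of the 12 fits with 1 library left out, in those without SOB3-D ZT4 replicate 1 and sob3-6 ZT4 replicate 2 (adjusted p 0.0197 to 0.108), and lost it with no filter on low values. Of 305 cytosolic ribosomal protein genes tested 1 passed, downward.

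Set out by time rather than by genotype, the genes that changed their difference moved less from ZT4 to ZT24 in sob3-6 than in SOB3-D. This span takes in the rest of the light period and the whole night. Among the 362 genes that changed upward the median change from ZT4 to ZT24 was -1.11 in SOB3-D and -0.16 in sob3-6, and 344 of them fell in SOB3-D. Among the 141 that changed downward the medians were 1.01 and 0.20. In sob3-6 the change over this span was the smaller one for 314 of the 362 (86.7%) and 125 of the 141 (88.7%), beside 62.4% of all genes tested. Since the change of the genotype difference is the difference of these 2 changes over time, this is a description from the same values.

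The ZT9 libraries, an hour after dusk, were not used for the classes. In their own fit 5.99% of the genes were higher and 4.03% lower in sob3-6. Of the lost genes that had been lower in sob3-6 at ZT4, 73 of 186 tested (39.2%) were lower at ZT9 and 3 were higher, and of those that had been higher, 24 of 80 (30%) were higher and 3 lower. Of the gained genes 18 of 108 (16.7%) were already higher at ZT9 and 19 were lower, and 6 of 39 (15.4%) were lower and 1 higher. Of the 37 genes that reversed upward, 36 were tested, of which 14 were still lower at ZT9 and 1 was higher. FBA1 had a difference of -0.99 at ZT9 (standard error 0.125, adjusted p = 0.00234). Of the gained genes named by the size of their change, KIN1, KIN2, BT2 and CRK28 already passed at ZT9 in their ZT24 direction. Their ZT9 differences were 1.61, 1.33, -0.55 and -0.76, in that order. EMB2729 passed the other way, at -0.70, and FBA5, AST91 and HSP17.4 did not pass at ZT9.

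**Figure D5:**
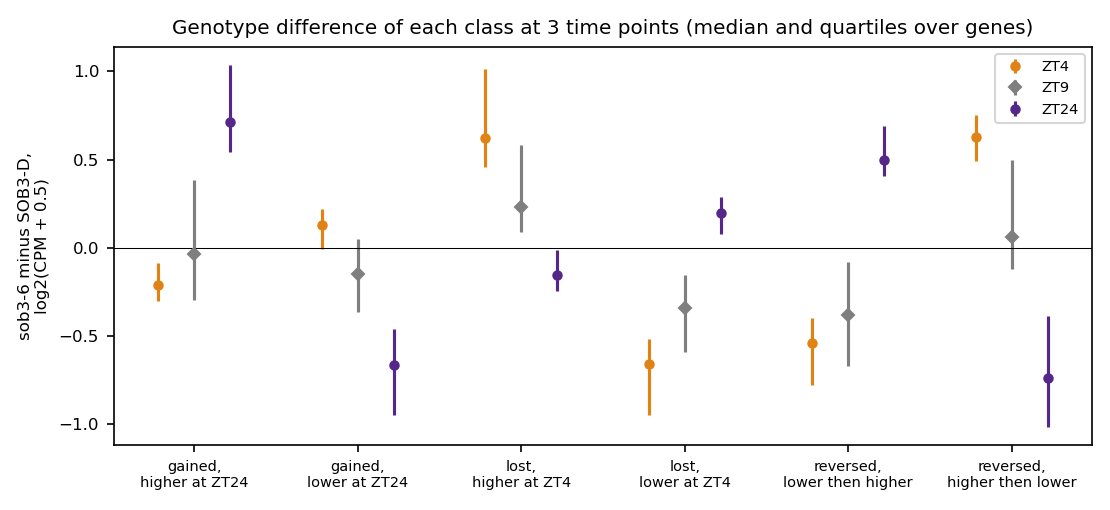
Median and quartiles, over genes, of the genotype difference (log2(CPM + 0.5)) at ZT4, ZT9 and ZT24 for 6 classes of genes set from ZT4 and ZT24. In the lost genes that were lower at ZT4, the ZT9 median of -0.34 lies between -0.66 at ZT4 and 0.20 at ZT24.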

How the data were processed

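The deposited signal was made by the authors from single-end reads mapped with Bowtie to TAIR10 cDNA, keeping all best hits, and given as CPM per transcript. A read that hit several transcripts was counted on each, so libraries summed to between 1547840 and 1573550. Versions and use of strand are not given in the sources used here. Each value was a whole number of reads (100% within 0.1 read), 1 read being worth 0.0903 to 0.166 CPM, and intervals from reads cover counting error only.

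The 12 libraries were fitted with limma 3.58.1 (R 4.3.3), trend in the variance, on log2(CPM + 0.5), for the 28222 transcripts averaging 0.5 CPM or more, with Benjamini-Hochberg adjustment. A gene was represented by its transcript with the highest mean. The ZT9 libraries had their own fit. edgeR 4.0.16 and DESeq2 1.42.0 were run on the recovered reads. Tested on simulated data (28218 transcripts, 200 changed 2-fold) the test recovered 82 with 3 false of 85 calls. The simulated reads had the same assumed dispersion for all transcripts and no plate effect, and only transcripts averaging at least 5 CPM were changed. These counts therefore do not give the rates in the real libraries.

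Both genotypes of a replicate set came from the same plates, according to the study's methods, so the numbers pair the samples. Deviations from group means correlated at 0.133 to 0.402 for equal numbers and -0.297 to 0.002 for unequal ones. Deviations within a group cancel out by construction. On average the lower values for unequal numbers therefore follow from the positive ones for equal numbers and are no separate check.

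Named genes had a symbol, a mean of at least 5 CPM, a change past the threshold and a difference of 1 sign in 3 of 3 pairs at each time point where it passed (opposite signs for genes passing at neither). By size of change, 4 were taken for each direction of gained and lost, 3 for each of reversed, 2 stronger, 2 weaker and 2 passing at neither, then SOB3, passing members of the PIF, growth repressor and clock lists, and up to 4 of other lists by smallest p. A result of this rule is not reported here. The members and lists were chosen with earlier results of these data known, and the carbon fixation list and the families of the closing section after their values were seen. Gene names, positions, 84-base stretches and promoters came from RefSeq TAIR10.1, on which 24635 of 24745 nuclear genes were found. Leaving out each library and replicate number, pseudocounts, filters and scalings were the alternatives.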

Additional observations from a re-analysis of the deposited data

Results flagged for a closer look

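All 27 genes named by the size of their change stand here because their genotype difference differed between ZT4 and ZT24 by a test of that difference itself, limma's interaction term with an adjusted p under 0.05. The genes were picked for this, so the flags are a description. Among gained genes the change of the difference, on the log2(CPM + 0.5) scale, was 3.92 for FBA5, 2.12 for KIN1, 1.58 for KIN2, 1.44 for EMB2729, -1.54 for BT2, -1.28 for HSP17.4, -1.22 for AST91 and -1.17 for CRK28. Among lost genes it was -3.37 for SEN1, -2.61 for ASN1, -1.46 for WRI4, -1.08 for BBX27, 2.22 for CYP706A6, 1.96 for LEA3 and 1.75 for SQP1. Among reversed genes it was 2.94 for CT-BMY, 2.204 for ATSPS4F, 1.89 for CYP76C1, -1.61 for CYCP4;1, -1.44 for GRF11 and -1.17 for GATA9. Genes that kept their direction changed by 2.40 for COR15A, 2.27 for ECS1, -1.18 for XTH4 and -0.92 for LUP1, and those that passed at neither time point by 2.41 for CYP79F2 and 1.75 for BBX18.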

How the results depend on the processing

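The replicate block, which uses the pairing of the libraries, gave 687 upward, 344 downward, 304 gained, 501 lost and 118 reversed genes, against 362 upward, 141 downward, 148 gained, 272 lost and 45 reversed without it. With the block in edgeR's quasi-likelihood test there were 762 upward, 252 downward, 285 gained, 498 lost and 113 reversed, and with the block in a fit of all 18 libraries 755 upward, 423 downward, 338 gained, 584 lost and 129 reversed, both chosen after seeing the data. At an adjusted p under 0.01 there were 94 upward, 18 downward, 33 gained, 62 lost and 8 reversed. Downward calls fell to 82 with TMM rescaling and 69 with edgeR's quasi-likelihood test, where 81.2% of calls were upward, and the cause was not tested. The other counts by pseudocount, filter, DESeq2, transcript choice and a fit of 18 libraries stayed within 1.5 times. Without 1 library the counts ran over 148 to 546 upward, 40 to 295 downward, 65 to 194 gained, 90 to 483 lost and 21 to 72 reversed. Without 1 replicate number in all groups, which leaves 2 libraries a group, they ran over 1 to 181 upward, 0 to 56 downward, 0 to 73 gained, 0 to 118 lost and 0 to 30 reversed, with 72 calls in all without replicate 1, 1 without replicate 2 and 237 without replicate 3. In each fit named here each of the 503 genes that could be tested kept the direction of its change, and the transcript choice and the threshold of 0.01 use the fit that called the 503. With limma the block, the filters and the fits of 18 libraries leave the estimates of the 503 as they were. The other fits reuse all or most of the same libraries, so this agreement in direction is no separate check. Depth limits low genes most, since 3 reads are 0.271 to 0.499 CPM.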

Other observations

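The chloroplast NDH complex, which carries electrons around photosystem I, moved upward in 9 of 16 nuclear genes tested for its subunits, and 16 of 16 estimates were above zero. This and the next 3 families were chosen after their values were seen, so the counts are a description, beside 1.76% of all genes upward and 0.685% downward. The median change was 0.70, beside -0.04 over all genes. PnsB2 went from -0.95 at ZT4 to 0.36 at ZT24, a change of 1.302 (standard error 0.165, adjusted p = 0.00191) by limma, and PnsL3 from -0.78 to 0.61. With the replicate block 13 passed, and without 1 library between 5 (without SOB3-D ZT4 replicate 3 and sob3-6 ZT4 replicate 1) and 12 (without sob3-6 ZT4 replicate 3). Of the 84-base stretches 47.6% occur in another gene for NdhL, 41.4% for PnsB4, 36.8% for NdhS, 18.6% for PnsL2, 12.4% for NdhN and at most 9.05% for the other 11.

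Of 132 genes tested that are annotated as disease resistance proteins of the NLR class, intracellular immune receptors, 7 passed upward, all gained, and 0 downward, while the family median of 0.01 was near that of all genes. SNC1 went from -0.08 to 0.72 and WRR4 from -0.08 to 0.74. With the replicate block 14 passed upward and 1 downward, and without 1 library between 3 (without SOB3-D ZT4 replicate 3, SOB3-D ZT24 replicate 2, sob3-6 ZT4 replicate 1 and sob3-6 ZT24 replicate 2) and 13 (without sob3-6 ZT4 replicate 3) passed upward. Many of these genes have close relatives, so reads may be shared.

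Among 27 B-box genes 4 passed upward and 3 downward. Without 1 library the upward count lay between 2 (without SOB3-D ZT4 replicates 2 and 3, sob3-6 ZT4 replicates 1 and 3 and sob3-6 ZT24 replicates 1 and 2) and 4 (without SOB3-D ZT24 replicate 1) and the downward count between 1 (without SOB3-D ZT4 replicate 3, SOB3-D ZT24 replicate 3 and sob3-6 ZT24 replicates 1 and 2) and 3 (without SOB3-D ZT4 replicate 1, sob3-6 ZT4 replicates 1, 2 and 3 and sob3-6 ZT24 replicate 3), and edgeR gave 4 and 1. BBX32 had a change of 2.47 (standard error 0.449, adjusted p = 0.0137) and BBX14 one of -0.76 (standard error 0.155, adjusted p = 0.0234), both by limma. Among 15 genes of aliphatic glucosinolate synthesis, all 15 estimates were above zero and the median change was 1.25, but 2 passed, CYP79F2 and MYB28, and without 1 library between 0 (without SOB3-D ZT4 replicates 2 and 3, SOB3-D ZT24 replicates 2 and 3 and sob3-6 ZT24 replicates 1 and 2) and 4 (without SOB3-D ZT4 replicate 1). MYB28, an activator of the pathway, went from -0.01 to 1.03.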
